A study of Mus musculus with 12 samples.

Results

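The baseline transcriptome of dorsal hippocampus at postnatal day 7 was described from the 6 control libraries among the 12 of the series. They were taken by genotype label, SERTfl/fl (spelled SERTfl/fll in the sample titles), a mouse in which Slc6a4, the gene of the serotonin transporter, is flanked by loxP sites and no deletion is named in the label. Each control library came from tissue pooled from 4 mice, 3 pools labelled female (F1, F2 and F3) and 3 labelled male (M1, M2 and M3). The other 6 libraries, SERTPyramid (SERTPyramid∆ in the titles), carry a label that the series title ties to loss of the transporter in CA3 pyramidal neurons, and were pooled the same way at the same age. The sources used here do not name the driver of that deletion or say whether pools shared litters, so spreads and p-values measure differences between these pools, which average over mice and could be partly technical. Levels are given as TPM (counts divided by the length of a gene's exons and scaled to the same total in every pool), which allows genes to be compared with each other. CPM (counts scaled for library size by the TMM method, without length) is used to compare pools for 1 gene.

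At this age the rodent hippocampus is still being built. Pyramidal neurons of the CA fields are in place, granule neurons of the dentate gyrus are still being born, synapses are forming, astrocytes are multiplying and myelination has barely begun. Receptors and ion transporters are at the same time being exchanged for their adult forms, among them the NMDA receptor subunits and the chloride transporters that decide whether GABA excites or inhibits a neuron.

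Control library totals ran from 18747249 counts in M1 to 25522347 in M2. Mitochondrial transcripts made up 2.11 to 2.30% of counts and ribosomal protein genes 0.668 to 0.736%. In 4 control pools (F2, F3, M2 and M3) transcripts from the sex chromosomes contradicted the label. Xist, the RNA that silences an X chromosome in female cells, had 20646, 59 and 527 counts in F1, F2 and F3 and 14, 22750 and 17572 in M1, M2 and M3. Summed counts of 4 Y-linked genes were 1, 3059, 2849, 2159, 0 and 4 in the same order. The letters F and M therefore name labels only, and no pool was moved. Slc6a4 itself had 5, 16, 9, 0, 17 and 12 counts, close to the detection limit in intact controls, where the 0 allows up to 0.160 CPM.

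The 2 nuclear loci with the highest TPM were annotated microRNA loci, Mir6236 and Gm23935, and short sequences of both are shown because their length sets their rank. The mature miR-6236 from RefSeq (GRCm38.p6, chr9:110281353-110281371, plus strand) is given with its seed, bases 2 to 8, in capitals. The Gm23935 locus (GRCm38, chr16:11144125-11144181, plus strand) has 57 bases.
miR-6236: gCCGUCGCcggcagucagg
Gm23935 locus: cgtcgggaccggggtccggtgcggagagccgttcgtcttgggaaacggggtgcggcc

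Mir6236 had 22230, 15076 and 19856 TPM in F1, F2 and F3 and 9789, 14169 and 16093 in M1, M2 and M3, a mean of 16202 ± 4387 (SD, n = 6). The same locus held only 501 CPM on average, since a short locus raises TPM. Gm23935 had 12224 ± 1763 TPM (SD, n = 6) from 175 CPM. Both were lowest in M1 and highest in F1, as were CT010467.1, annotated as a ribosomal RNA (1010 CPM in M1 and 1643 in F1), and the non-coding Gm26917 (381 and 1041 CPM). Libraries made for messenger RNA are not designed to measure microRNAs, and the sources used here do not say how reads that fit several places were counted, so these levels do not measure the microRNA.

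Among the other 18 of the 20 most abundant nuclear genes, 5 were tubulin genes. They were Tubb3 (3876 ± 198 TPM), Tuba1a (3552 ± 124), Tubb5 (3188 ± 138), Tubb2a (2625 ± 92.9) and Tubb2b (2529 ± 149; SD, n = 6 for each). Tmsb4x, which binds actin monomers, had 2816 ± 96.7 TPM and Basp1, a growth-cone protein, 2665 ± 81.7 (SD, n = 6). Also among them were Nrgn, neurogranin, a calmodulin-binding protein of dendrites (4090 ± 138 TPM), Calm3, a calmodulin gene (3917 ± 59.4), and Camk2n2, an inhibitor of CaM kinase II (2515 ± 442). Ptms, parathymosin, led the protein-coding genes at 4733 ± 299 TPM. Cpe (3137 ± 61.4), a processing enzyme of neuropeptides, Eef2 (2921 ± 76.9), a translation elongation factor, Selenow (2731 ± 64.9), Hsp90ab1 (2704 ± 64.5), a chaperone, and Psap (2410 ± 80.1), a lysosomal protein precursor, completed the steady members. Their ranges across pools were narrow, with the highest pool of Calm3 only 1.04 times the lowest in CPM.

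Besides Mir6236 (2.26-fold between pools in CPM) and Camk2n2 (1.65-fold), Ttr (1.89-fold) and Tbkbp1 also varied. Ttr, transthyretin, a secretory product of the choroid plexus, had 3112, 4182 and 3091 TPM in F1, F2 and F3 and 5808, 3830 and 4073 in M1, M2 and M3. Tbkbp1, an adaptor of the kinase TBK1, had 2268, 2538 and 2072 TPM in the pools labelled female and 4215, 1143 and 2645 in those labelled male. Tbkbp1 was thus highest in M1 and lowest in M2, a 3.78-fold range in CPM.

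**Figure D1:**
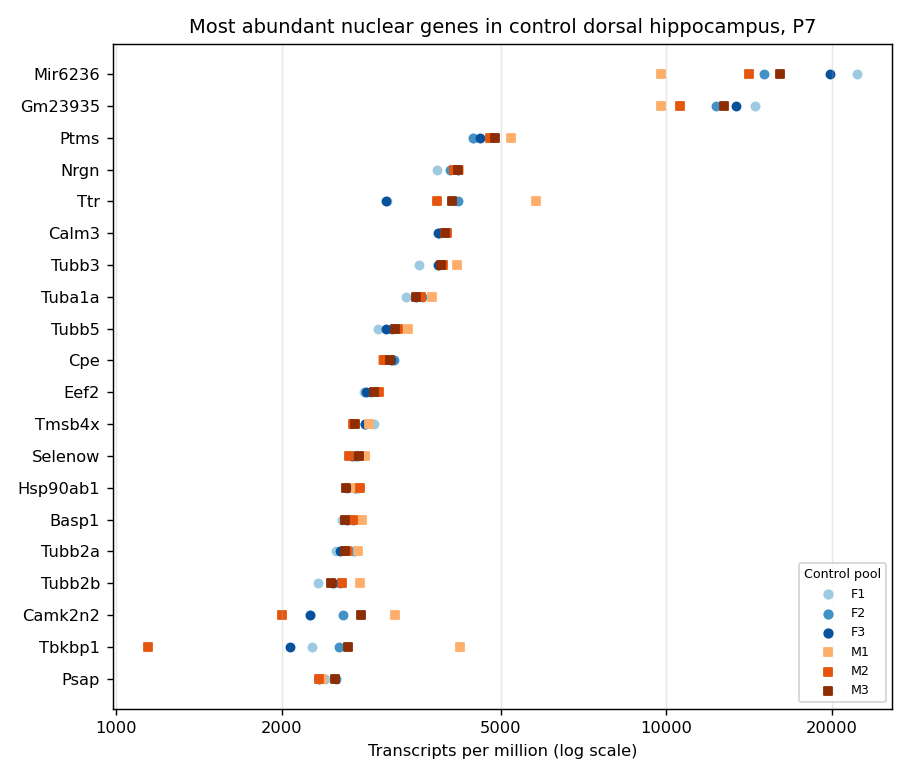
TPM (log axis) of the 20 most abundant nuclear genes, 1 point per control pool, circles for pools labelled female and squares for pools labelled male. Most genes have points that almost coincide, whereas Tbkbp1 runs from 1143 in M2 to 4215 in M1 and Mir6236 from 9789 to 22230.

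In the mitochondrial genome mt-Cytb had 16953 ± 616 TPM, mt-Co1 14394 ± 618 and mt-Nd1 13916 ± 311 (SD, n = 6), all genes of the respiratory chain. Other mitochondrial genes of the same chain were listed far lower, such as mt-Co2 at 40.1 ± 6.48, mt-Atp6 at 30.0 ± 2.71 and mt-Co3 at 29.9 ± 1.92 TPM. Gapdh, a glycolytic enzyme gene with many near-identical copies, was listed at 27.9 ± 1.54 TPM, and the non-coding Meg3 and Rian at 0.357 ± 0.375 and 0.082 ± 0.0375 TPM (SD, n = 6). These genes are known as abundant in brain, their counting here is uncertain, and their part in the tests below was not tested. The gene mt-Nd6 (13552 to 14070) lies on the strand opposite mt-Nd5 (11742 to 13565), and their annotated spans overlap only at the edge. Since the kit does not mark strand, its 5540 ± 216 TPM cannot be told apart from reads of the opposite strand at that locus.

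In all 6 control pools 15757 genes reached 1 TPM, 13409 of them protein coding, and 20742 of the 52634 genes in the table had no count in any control. The 100 highest genes held 24.7 to 26% of TPM.

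Which cell classes were present was read from 21 lists of marker genes. In bulk tissue, fewer cells of a type and less RNA per cell cannot be told apart. Summed TPM was highest for the lists of immature neurons (9061 to 10336) and of neurons in general (6450 to 6990). Lists differ in size and a few abundant members can make up most of a sum, so sums do not rank the classes by number of cells. Tubb3 headed the neuronal list, followed by Stmn2, a microtubule regulator (977 ± 23.2 TPM), Nefl, a neurofilament gene (383 ± 11.8), and Syt1, the calcium sensor of release (374 ± 20.7). All 13 immature-neuron markers exceeded 1 TPM, and Gap43, a growth-cone protein, reached 2359 ± 143, Marcksl1 1638 ± 70.9 and Dpysl3 1452 ± 43.5 TPM (SD, n = 6). Dcx, doublecortin (X, 143855842 to 143933311, minus strand, GRCm38), had 210, 222 and 229 TPM in F1 to F3 and 204, 231 and 211 in M1 to M3. The groups overlapped and no pool stood apart.

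Markers of each hippocampal field were detected. Prox1, the transcription factor that sets granule neuron identity (chromosome 1, 190118035 to 190170714, minus strand, GRCm38), had 122, 98.4 and 105 TPM in F1 to F3 and 90.3, 107 and 93.8 in M1 to M3. F1 was highest and M1 lowest, and the labelled sexes overlapped. The other leading granule genes were Calb1, calbindin (36.4 ± 3.29 TPM), Stxbp6 (31.9 ± 2.61) and C1ql2, a synaptic organizer of mossy fibres (31.7 ± 4.95). In the CA3 list Cpne4 (128 ± 5.14), Bok (109 ± 4.16), Grik4, a kainate receptor subunit (50.0 ± 1.47), and Ociad2 (39.1 ± 3.02) were highest. For CA2 they were Pcp4 (66.7 ± 3.40), Cacng5 (31.3 ± 2.57), Amigo2 (19 ± 1.92) and Rgs14 (16.1 ± 1.74). For CA1 they were Mpped1 (282 ± 15.8), Pou3f1 (232 ± 12.1), Wfs1 (112 ± 9.43) and Fibcd1 (84.6 ± 5.87).

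The 9 markers of excitatory neurons summed to 4047 to 4565 TPM and the 17 of GABAergic interneurons to 1754 to 1966. Camk2a, a kinase of excitatory synapses, had 1231 ± 90.2 TPM, Slc17a7, the vesicular glutamate transporter of most hippocampal pyramidal cells, 878 ± 58.1, Zbtb18 685 ± 23.5 and Neurod6 587 ± 17.2 (SD, n = 6). Among interneuron markers the neuropeptide genes Cck (672 ± 39.3), Sst (645 ± 42.8) and Npy (171 ± 9.13) and the vesicular GABA transporter gene Slc32a1 (118 ± 14.2) led. Cck is also made by pyramidal cells. Pvalb, the calcium buffer of fast-spiking basket cells, whose expression is known to come late, had 14, 15 and 8 counts in F1 to F3 and 4, 8 and 6 in M1 to M3, or 1.52 ± 0.705 TPM (SD, n = 6). Cajal-Retzius markers, of transient neurons that secrete reelin, were led by Calb2 (157 ± 6.94), which other neurons share, Reln (78.9 ± 4.62), Ndnf (26.5 ± 1.75) and Trp73 (14.7 ± 1.06).

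Markers of astrocytes, radial glia and oligodendrocyte precursors were detected, and markers of myelinating oligodendrocytes had a lower sum than those of the precursors. Gfap, the astrocyte filament (chromosome 11, 102887336 to 102900912, minus strand, GRCm38), had 377, 356 and 355 TPM in F1 to F3 and 341, 363 and 372 in M1 to M3. Other astrocyte genes were Glul, glutamine synthetase (616 ± 36.2), the glutamate transporters Slc1a2 (462 ± 52.1) and Slc1a3 (371 ± 9.07), and Aldoc (404 ± 7.19). Radial glial and stem cell genes were led by the fatty acid binding protein Fabp7 (1314 ± 55.1), then Tnc (127 ± 5.20), Sox2 (119 ± 5.88) and Vim (114 ± 7.22). Dividing-cell genes were low, with Pcna at 48.2 ± 2.69, Mki67 at 19.3 ± 1.01, Top2a at 18.3 ± 1.26 and Hmgb2 at 14.7 ± 1.08 TPM (SD, n = 6).

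Oligodendrocyte precursor markers, led by Olig1 (426 ± 18.2 TPM), Olig2 (99.6 ± 6.82), Gpr17 (81.5 ± 15.1) and Sox10 (76.8 ± 6.47), had a list sum of 873 to 1002 TPM. Without Olig1 the sum ran from 443 to 542 TPM, and Pdgfra stood at 75.4 ± 4.25 TPM. Whether each of these markers is particular to precursors was not tested. Myelinating markers summed to 152 to 204 TPM, and 10 of 14 reached 1 TPM. Mbp, myelin basic protein (chromosome 18, 82475146 to 82585637, plus strand, GRCm38), had 50.6, 39.7 and 44.5 TPM in F1 to F3 and 36.9, 42.8 and 50.0 in M1 to M3. Cnp stood at 65.0 ± 5.22 and Cldn11 at 15.8 ± 3.73 TPM. Opalin, a marker of late oligodendrocytes, had 1, 2 and 2 counts in F1 to F3 and 1, 1 and 2 in M1 to M3. Mobp, a late myelin protein, had 39 counts in F1 against 4, 5, 4, 5 and 10 in the others.

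Markers of immune, vascular, meningeal and blood cells were also detected. The 15 microglial markers all exceeded 1 TPM and summed to 527 to 586, with C1qa highest (81.3 ± 2.72), followed by C1qb (70.2 ± 2.49), and with C1qc at 55.8 ± 2.62. Endothelial markers were led by Cldn5, a tight-junction protein (239 ± 14.1), and Mfsd2a (85.9 ± 5.89), Slc2a1 (73.4 ± 4.12) and Esam (30.9 ± 2.17). Pericyte and smooth muscle markers were led by Rgs5 (139 ± 8.39), Vtn (108 ± 4.88), Pdgfrb (33.2 ± 1.66) and Notch3 (29.5 ± 1.64). Meningeal fibroblast markers were led by Igf2 (157 ± 6.66), Col1a1 (37.4 ± 3.47), Col3a1 (22 ± 1.89) and Col1a2 (21 ± 1.81), and red cell markers by Hbb-bs (157 ± 17.9), Hbb-bt (51.4 ± 4.91), Hba-a1 (40.4 ± 3.78) and Hba-a2 (33.8 ± 3.78 TPM; SD, n = 6), near-identical globin genes whose reads may be divided.

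**Figure D2:**
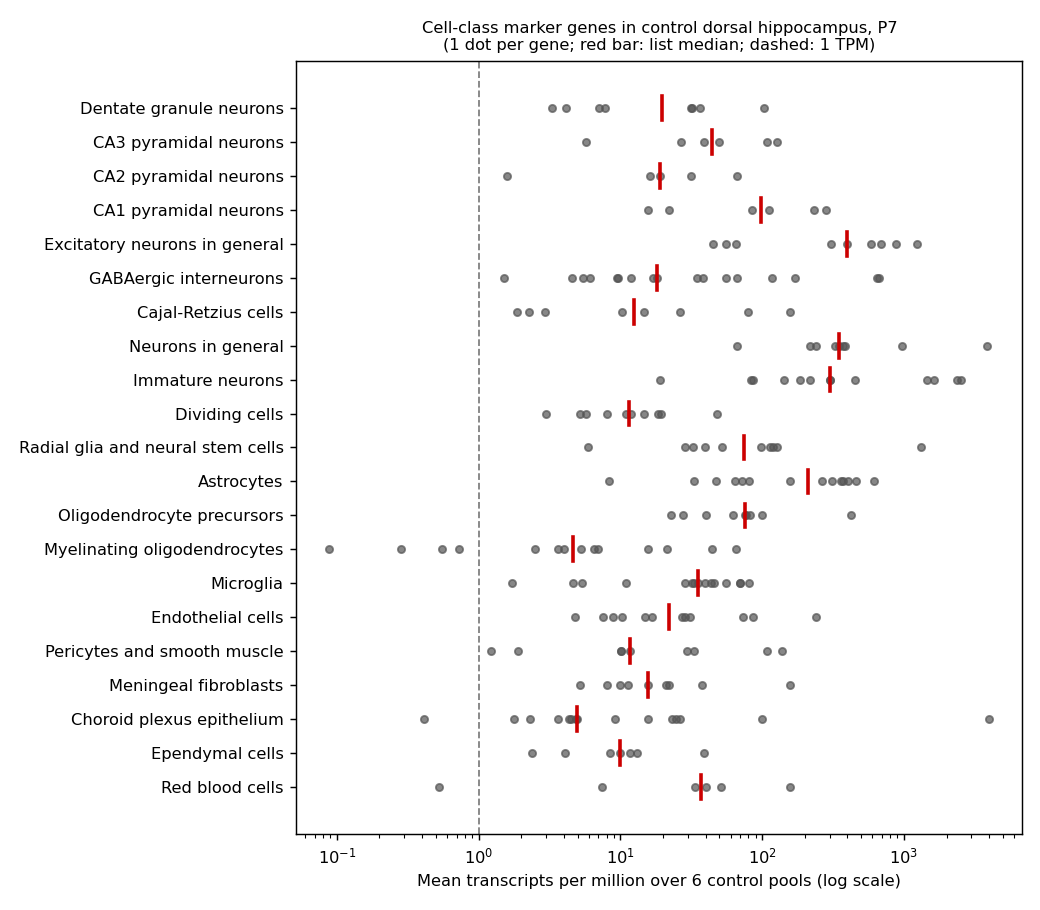
Mean TPM over the 6 control pools (log axis) of every marker of the 21 cell classes, 1 dot per gene, with a red bar at the median of the list and a dashed line at 1 TPM. The medians of excitatory neurons (395), neurons in general (350) and immature neurons (301) lie highest, astrocytes (211) lie above the single hippocampal fields, and the myelinating list reaches furthest below 1 TPM, down to Opalin at 0.0886.

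Markers of other brain regions ranged from near absent in the midbrain and hindbrain list to 131 to 155 TPM in the neocortical list, a sum that overlapped that of CA2 (127 to 149). Midbrain and hindbrain genes summed to 1.97 to 3.01 TPM, most of it Tph2, the serotonin-synthesizing enzyme of raphe neurons (1.49 ± 0.327), then En1 (0.512 ± 0.0948), Pcp2 (0.317 ± 0.136) and En2 (0.256 ± 0.168). Hoxa5 had 1 count in 1 pool and none in the other 5, and Fev, of serotonergic neurons, 1 count in each of 2 pools. Thalamic genes summed to 52.4 to 56.5 TPM and were led by Prkcd (38.5 ± 1.68), Lhx9 (10.1 ± 0.959), Lef1 (3.13 ± 0.147) and Tcf7l2 (2.64 ± 0.329), and Gbx2 had at most 2 counts in any pool. Neocortical genes were led by Fezf2 (71.2 ± 4.52), Tle4 (49.0 ± 3.38), Cux2 (19.1 ± 1.92) and Rorb (3.79 ± 0.281), and striatal genes by Ppp1r1b (31.5 ± 3.71), Rgs9 (13.2 ± 0.721) and Drd2 (6.19 ± 0.733). Fezf2 and Tle4 are also made by hippocampal cells. The field transcription factors included Lhx2 (173 ± 7.55), Lmo4 (150 ± 8.21) and Bcl11b (148 ± 5.49 TPM), all of the developing forebrain. Among immediate early genes, which follow neuronal activity, Egr1 (70.6 ± 4.77), Egr4 (55.2 ± 5.27), Nr4a1 (48.0 ± 3.49) and Ier2 (43.8 ± 4.56) were highest, and the list sum ran only from 334 to 357 TPM.

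The state of maturation was read from 20 pairs of an early over a late gene, given as log2 of the ratio in TPM. The early member was higher in all 6 pools in 11 pairs and the late member in 9, and no pair was mixed. The order within the channel pair Kcnc4/Kcnc1 is a choice of the list and not an established sequence. Genes differ in their exons, so ratios also depend on the length used.

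NMDA receptor pairs favoured the early subunit. Grin2b, the subunit of immature synapses, stood at 158 ± 19.5 TPM and Grin2a, which replaces it, at 20.4 ± 2.22. The log2 ratio was 2.88, 2.94 and 3.05 in F1 to F3 and 2.84, 3.03 and 2.95 in M1 to M3. Every pool had Grin2b several times above Grin2a, a mean ratio of 7.73-fold. Grin3a over Grin2a was 1.42 ± 0.17 (SD, n = 6).

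The chloride transporter pair favoured the late member. Slc12a2, which imports chloride, had 20.6 ± 1.14 TPM and Slc12a5, which exports it, 211 ± 8.22. Their log2 ratio was -3.42, -3.37 and -3.25 in F1 to F3 and -3.39, -3.30 and -3.40 in M1 to M3, with the exporter 10.2-fold higher on average. Camk2b over Camk2a (-1.04 ± 0.08), Dlg3 over Dlg4 (-0.93 ± 0.02), Gria4 over Gria2 (-2.15 ± 0.14) and Sox11 over Rbfox3 (-1.33 ± 0.06) also favoured the late gene.

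Cell lineage pairs differed among themselves. Dcx over Calb1 was 2.58 ± 0.11 and Pdgfra over Mog 3.54 ± 0.22, with the early gene higher in both. Gpr17 over Mbp was 0.87 ± 0.15, but 0.05 where the longest transcript served as length. Nes over Gfap was -3.47 ± 0.09 and Mki67 over Rbfox3 -3.48 ± 0.09. Igf2bp1, an RNA-binding protein of embryonic tissue, was at 0.459 ± 0.114 TPM, and its ratio to Camk2a was -11.42 ± 0.40 (SD, n = 6).

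Other neuronal pairs gave values between these. Marcksl1 over Snap25, which fuses synaptic vesicles, was 2.22 ± 0.11, Scn3a over Scn1a 1.10 ± 0.12 and Kcnc4 over Kcnc1 1.99 ± 0.31. Scn2a over Scn8a was 0.30 ± 0.09 (SD, n = 6), the ratio nearest 0, and it turned to -0.01 without correction for length.

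**Figure D3:**
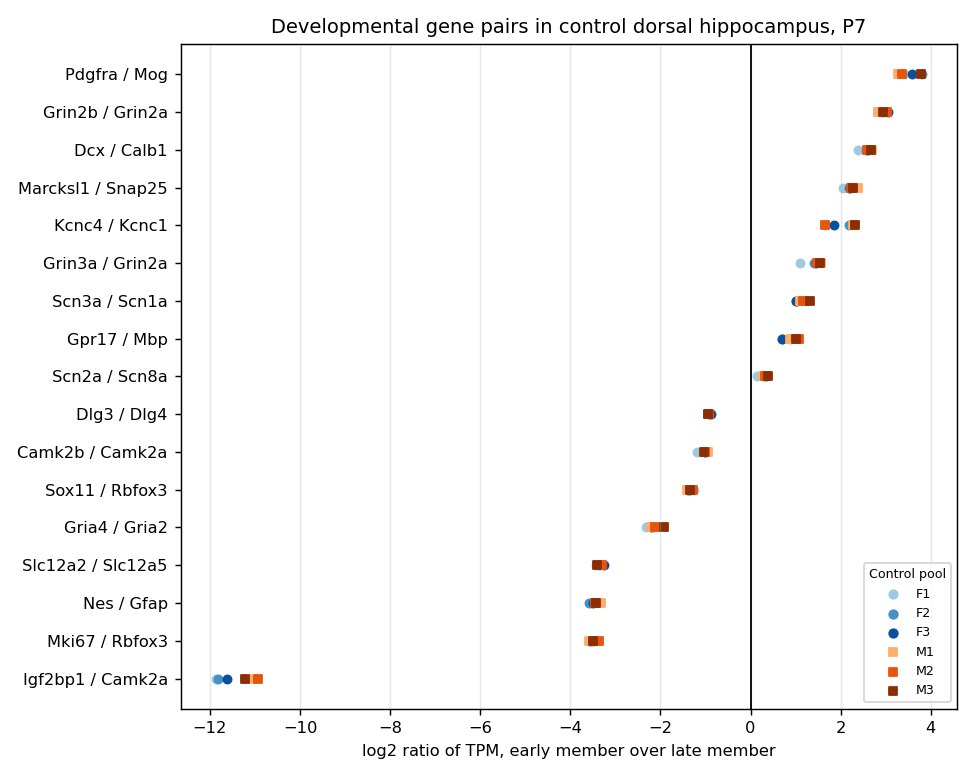
Log2 ratio of early over late member in TPM for each pair named in the text, 1 point per control pool. Pdgfra over Mog lies highest (3.54) and Igf2bp1 over Camk2a lowest (-11.42), and the 6 pools of a pair lie on 1 side of 0.

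Variation between the 6 pools was measured as the biological coefficient of variation (BCV), the spread of scaled counts beyond counting noise divided by the mean. Of 14998 genes with a mean of at least 1 CPM, 100 (0.667%) had a BCV over 0.3 and 2137 (14.2%) over 0.1, and the median was 0.0398. At the threshold Tcim (0.3005) lay just inside and Gm12663 (0.2999) just outside. In the SERTPyramid pools, which the ranking did not use, 47 of the 100 also exceeded 0.3, which is 47.0% of the controls' list and 20.3% of the 231 genes over 0.3 there, against 1.54% of all ranked genes. The 100 and the 47 both include Xist and the Y-linked Ddx3y, Uty, Kdm5d and Eif2s3y, which mark sex. Their BCV was 1.08 to 1.1 in controls and 1.09 to 1.11 in SERTPyramid pools. The highest pool of the 100 genes was M1 for 33, M3 for 27, F2 and M2 for 11 each and F1 and F3 for 9 each. M1 was the shallowest library, and its deviations from the other pools followed GC content (Spearman 0.30 across genes) and gene length (-0.30), whose part in the variation was not tested.

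Once predicted models and sex-specific genes were passed over, the gene with the highest BCV was Nkain1 (1.12), a membrane protein that interacts with the sodium pump. It had 1.09, 1.07 and 1.37 CPM in F1 to F3 and 7.14, 1.18 and 1.13 in M1 to M3, so that M1 alone was high. Meg3, at 1.09, 0.685, 1.06, 5.12, 1.14 and 0.671 CPM in the same order, was high in M1 too. The genes most like Nkain1 by Pearson correlation of log2 CPM over the 6 pools were Sdhc (0.995), Melk, Ift74, Pex5, Scand1, Bex3, Dnm2, Mgat2, Tma7 and Dvl2 (0.983), all higher in M1, with a highest pool 1.09 to 1.27 times the lowest. These correlations rest on that pool.

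Several variable genes were each high in 1 pool. Snai2, a transcription repressor, reached 5.48 CPM in F2 against 1.85 to 2.50 elsewhere. Zic4, a zinc-finger factor, reached 19 CPM in M3 against 6.70 to 9.72, and its neighbour Zic1 69.5 against 34.7 to 42.0.

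Fmod, fibromodulin of connective tissue, reached 7.53 CPM in M2 against 2.96 to 3.92. Ptgds, prostaglandin D synthase of the leptomeninges, reached 97.5 CPM there against 38.5 to 64.8. Spp1, osteopontin, had 3.94 in M1 to 13.5 CPM in M3. Summed meningeal fibroblast markers were also highest in M2 (310 TPM against 271 to 291), and their part in Fmod and Ptgds was not tested.

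The remaining named genes were Capn11, Glp2r, Lrrc71, Tbkbp1, Ak8, Lrrc36, Skap1, Zfp474, Crygn, Deup1, Cplx3 and Ing4, with BCV from 0.373 to 0.516 and mean levels of 1.01 to 2.48 CPM except Tbkbp1 at 2485. Ak8, of cilia, had its highest level in M1 (2.88 CPM), as had Lrrc71 (2.82 CPM), and Deup1, of the centriole-making deuterosome, in M3 (1.68 CPM). Near 1 CPM a pool has few counts, so single values there are imprecise. In this ranking 19 predicted gene models and sex-chromosome genes were passed over.

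Sets of genes that varied together were chosen after their values were seen. Tbkbp1, Sfpq, Adnp, Pfn1, Ybx1, Camk2n2, Klf2 and Palld were all highest in M1 and lowest in M2. Sfpq, a nuclear RNA-binding protein, had 3540 CPM in M1 and 1503 in M2. Malat1, Miat, Snhg11, Leng8, Thbs3, Pabpn1 and Clasrp, among them nuclear non-coding RNAs, were lowest in M3. Malat1 had 204, 159, 216, 216, 169 and 114 CPM in F1 to M3.

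Eif2s3x, Kdm6a and Kdm5c, X-linked genes that escape silencing, were higher in F1, M2 and M3, the pools with high Xist, than in F2, F3 and M1. Eif2s3x had 52.1, 36.0, 34.9, 35.4, 52.6 and 53.2 CPM in F1 to M3.

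**Figure D4:**
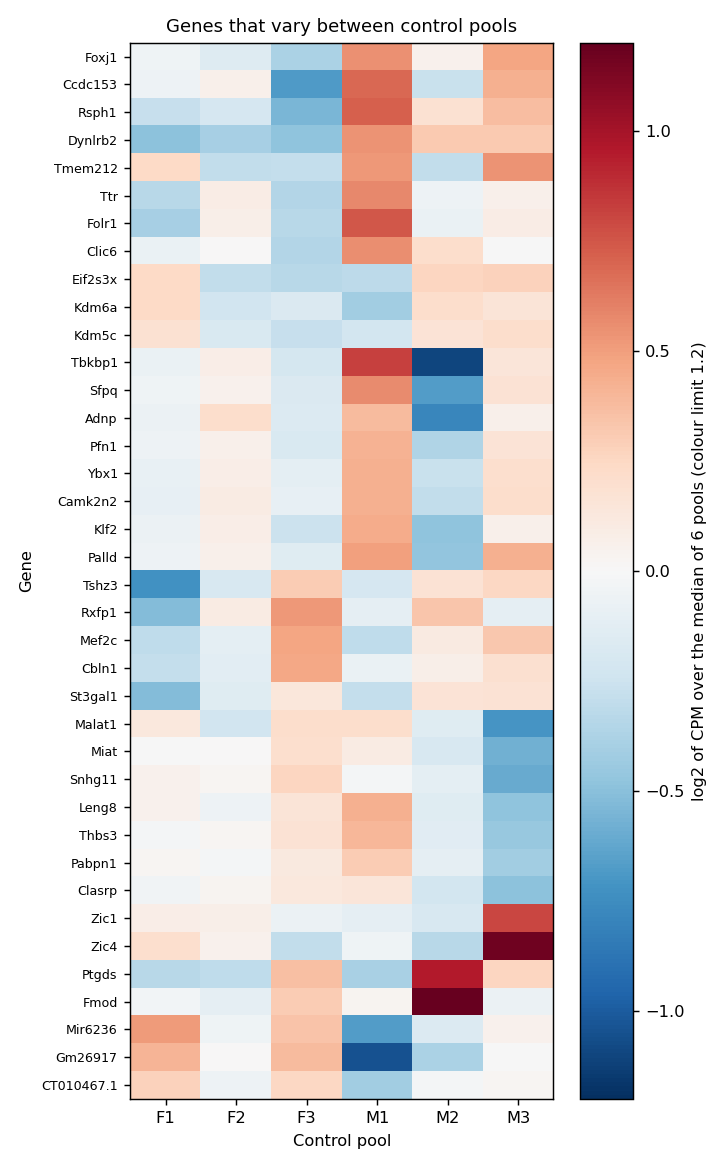
Colour shows log2 of CPM over the median of the 6 control pools for genes (rows) in each pool (columns), with the colour limit at 1.2. M1 stands out in choroid plexus genes and in Tbkbp1 and its group, and M1 and M3 are both high in ciliary genes. M2 stands out in Ptgds and Fmod, and M3 in Zic1 and Zic4 and in low Malat1.

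Among the 21 cell classes, choroid plexus and ependymal genes varied most between pools. These are the secretory epithelium of the ventricles and the ciliated cells that line them. Summed choroid plexus markers had 3308, 4403 and 3275 TPM in F1 to F3 and 6092, 4067 and 4301 in M1 to M3, almost all of it Ttr (chromosome 18, 20665280 to 20674321, plus strand, GRCm38). After Ttr came Enpp2 (99.4 ± 11.9 TPM), Sostdc1 (26.2 ± 3.13) and Aqp1, a water channel (24.6 ± 5.77; SD, n = 6). Without Ttr the range was 1.55-fold, and 14 of the 15 genes had a BCV over 0.1 against 14.2% of all ranked genes. The sum in the 6 SERTPyramid pools ran from 111 to 8396 TPM.

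Summed ependymal markers had 78.0, 73.8 and 61.5 TPM in F1 to F3 and 121, 87.1 and 110 in M1 to M3, a 1.97-fold range and no overlap between labelled sexes. Foxj1, the master regulator of motile cilia (chromosome 11, 116330704 to 116335399, minus strand, GRCm38), had 34.5, 32.3 and 27.5 TPM in F1 to F3 and 52.2, 38.0 and 49.5 in M1 to M3. Rsph1, of the ciliary radial spoke, Tmem212 and Dynlrb2, a dynein light chain, followed at 13.2 ± 4.33, 11.7 ± 3.24 and 9.90 ± 3.20 TPM (SD, n = 6). Of the 6 members with a ranked BCV, 5 exceeded 0.1. Dentate granule sums ran from 197 in M1 to 265 in F1 and myelinating sums from 152 in M1 to 204 in F1, a 1.34-fold and 1.35-fold range, and the other cell classes varied by at most 1.29-fold.

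**Figure D5:**
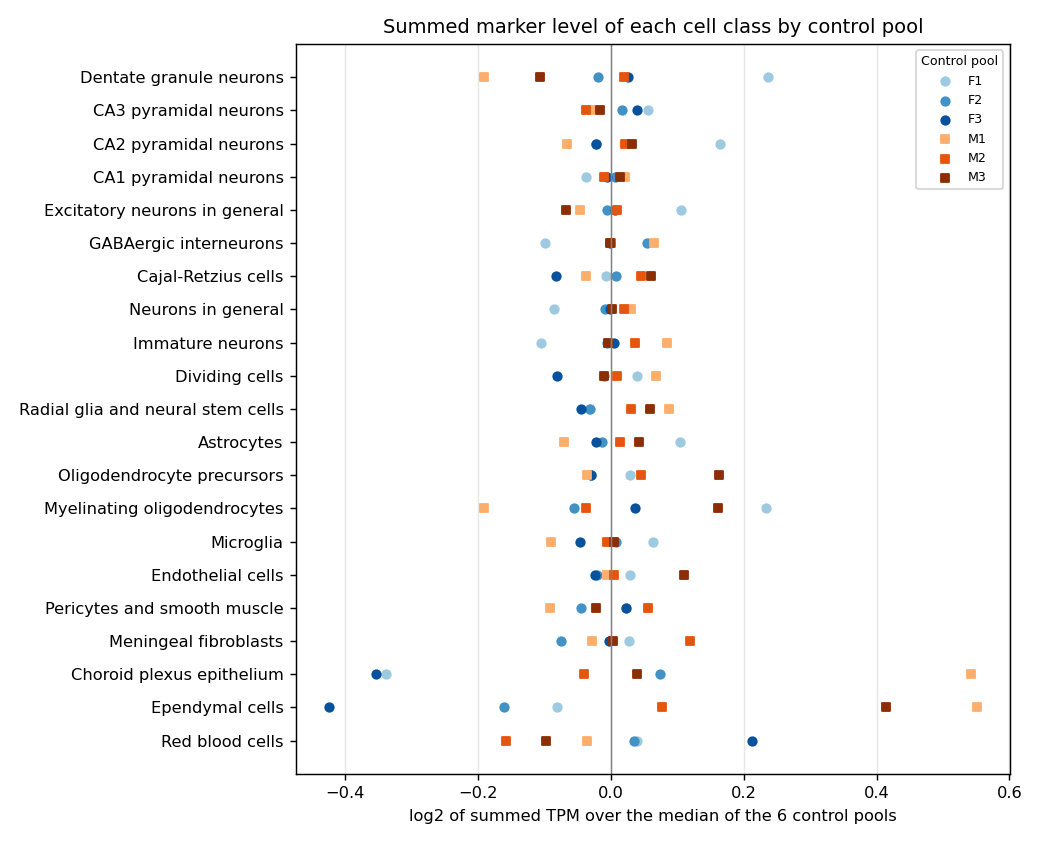
Log2 of the summed TPM of each cell-class list over the median of the 6 control pools, 1 point per pool. Choroid plexus (3275 to 6092 TPM) and ependymal sums (61.5 to 121 TPM) spread widest.

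The only comparison the labels allow inside the controls is labelled sex, and 4 of 6 pools go against that label. In edgeR's quasi-likelihood test 0 of 17631 genes (0%) passed an adjusted p of 0.05, the smallest adjusted p was 0.974, and 833 genes (4.72%) had an unadjusted p under 0.05. Also by edgeR, the 10 genes with the smallest p were Elof1, Mctp1, Ccdc51, Gpcpd1, Banp, Cep85l, Aire, Plekhb1, Phlda1 and Zfp94. Elof1, a transcription elongation factor, had 33.14, 32.38 and 32.39 CPM in F1 to F3 and 38.31, 37.72 and 40.83 in M1 to M3, a log2 difference of -0.26 ± 0.05 (SE, adjusted p = 0.974 by edgeR). Its groups did not overlap, as for 2164 of all genes (12.3%).

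All 15 choroid plexus genes were lower in the pools labelled female, with a median log2 difference of -0.44, and 6 did not overlap (Kcnj13, Otx2, Aqp1, Tmem72, Slc4a5 and Cldn2), where 6.14% of all genes did so in that direction. All 7 ependymal genes were lower, with a median of -0.51, and Foxj1, Dynlrb2 and Rsph1 did not overlap. Of 10 radial glial genes 6 were lower without overlap, at a median of only -0.09. All 8 dentate granule genes were higher in the pools labelled female, at a median of 0.16. Of these 1, C1ql2, did not overlap, where 6.13% of all genes did so in that direction. All 6 CA3 and all 6 red cell genes were higher there too, at medians of 0.06 and 0.16. Over all genes tested 50.0% were lower and the median was 0.0001. None of these members passed in edgeR, and genes of 1 cell class are not independent of each other.

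Of the 7 ependymal genes, 1 was called in each of 2 other settings. Foxj1 was the 1 gene called by DESeq2 on the 6 controls alone, a setting added after the data were seen (log2 difference -0.56, adjusted p = 0.0273 by DESeq2), whereas edgeR on the same 6 libraries called 0 of 17049, with 1124 at an unadjusted p under 0.05. Rsph1 (-0.76), Ak7 (-0.73) and 2410004P03Rik (-0.73) were the 3 genes edgeR called without a low-count filter. Without F1 and M1, the control pools whose sex transcripts follow their label, edgeR called 7 genes, all on the sex chromosomes. Kdm5c and Eif2s3x were lower and Kdm5d, Uty, Ddx3y, Eif2s3y and Gm29650 higher in labelled female pools. Leaving out those pools makes the labelled groups differ in sex transcripts, so these calls follow from that choice and add no separate support.

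Xist and the Y-linked genes contradicted the labelled sex in all 6 SERTPyramid pools too, with Xist at 0.613 to 1.79 CPM in those labelled female and 709 to 920 in those labelled male. Against these pools, averaged over labelled sex, 0 of 17631 genes (0%) passed in edgeR, the smallest adjusted p was 0.756, and 1145 (6.49%) had an unadjusted p under 0.05. Also by edgeR, the 10 genes with the smallest p were Gfap, the collagen VI genes Col6a1 and Col6a2, the complement gene C4b, and Hps4, Man2b1, Pias2, Ppia, Tars2 and Usp19. No marker of the 27 lists passed. Gfap had 383 ± 14.0 CPM in controls and 421 ± 16.1 in SERTPyramid (SD, n = 6), a log2 difference of 0.14 ± 0.03 (SE, adjusted p = 0.756 by edgeR), without overlap, as for 0.187% of all genes. Without SERTPyramid replicate 2 labelled male 144 genes passed, and without a low-count filter 66.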

How the data were processed

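RNA from dorsal hippocampus, pooled from 4 mice a library, was made into libraries from 250 ng with the TruSeq RNA v2 kit, per the labels. The deposited values are raw counts per Ensembl gene (whole numbers), with build mm10 per the submitters' processing notes; the sources used here do not give the aligner, counting settings or annotation. All 52634 rows name a gene and 0 columns were unmapped. TPM used union exon lengths from GENCODE M21 (52487 genes). Tests were edgeR 4.0.16 (R 4.3.3) quasi-likelihood with TMM and filterByExpr on all 12 libraries in 4 groups, adjusted by Benjamini-Hochberg; DESeq2 1.42.0 and other filters, scalings, lengths and left-out libraries were alternatives. On simulated counts for labelled sex within controls (17631 genes) the test recovered 26, 54, 78 and 94 percent of genes changed 1.2, 1.5, 2 and 4-fold, with 7 false calls. These shares are for differences between the labelled groups, and sex transcripts contradicted the label in 4 control pools. Xist ran from 0.746 CPM in M1 to 904 in F1, with an adjusted p of 0.986 by edgeR for labelled sex. Recovery of differences that follow the sex transcripts was not tested. In no pair of the 12 libraries (66 pairs) did counts agree within sampling noise (chi-square over degrees of freedom 2.39 to 17.7).

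The members, pairs and 27 lists were chosen with earlier results of these data known. Named were the 20 most abundant genes, the 4 highest members of each list and members with at most 3 counts in every control, all pairs, the 20 largest BCV values (predicted models and sex-specific genes passed over), the 10 genes most correlated with the first of these, and the 10 smallest p in each test. Mitochondrial genes were ranked apart. Members of the choroid plexus and ependymal lists named for not overlapping, the gene sets of single pools, and Pvalb, Mobp, Gapdh, Rian and the low mitochondrial genes were named after their values were seen. Some genes, pairs and a sequence that these rules name are not reported here. A count of 0 was taken to allow 3 counts, which covers counting error only.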

Additional observations from a re-analysis of the deposited data

Results flagged for a closer look

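Among 87 groups of 6 control pools looked at, 10 had 1 pool far from the other 5, where chance flags about 1 in 20 groups; 7 of the 10 are genes ranked for their variation, so that a far pool is partly what chose them. The summed TPM of markers of neurons in general was 6450 in F1, below the next value of 6798, and that of hippocampal field transcription factors was 1539 in M1, above 1441. The log2 ratio of Grin3a over Grin2a was 1.09 in F1 against 1.41 to 1.57. In CPM, M1 stood far above the other pools for Nkain1 (7.14), Meg3 (5.12), Lrrc71 (2.82) and Ak8 (2.88). F2 did so for Snai2 (5.48), M3 for Zic4 (19) and M2 for Fmod (7.53).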

How the results depend on the processing

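For labelled sex edgeR called 0 genes, with 0 to 0 over the 12 left-out libraries, 3 without a low-count filter, 7 without replicate 1 of both control groups and 1 by DESeq2 on the controls alone. For genotype it called 0, with 66 without the filter and 0 to 144 over left-out libraries. DESeq2 on all libraries, RLE scaling and a filter of 1 CPM in 6 libraries gave 0 for both. Same-numbered control pools did not deviate together (correlations -0.23, -0.14 and -0.12), which cannot show whether such pools shared a litter or a batch. The replicate block gave 0 calls in both comparisons. The 100 genes with a BCV over 0.3 became 168 by SD of log2 CPM, 19 at a mean of at least 5 CPM and 271 at 0.5 CPM, and 103 to 136 over left-out pools. Early members were higher in 11 pairs, 10 with longest-transcript lengths and 8 without length, where Scn2a over Scn8a reversed to -0.01; 33 pair values moved by more than the spread between pools. The causes were not tested. For levels in controls, 1 TPM in every pool was reached by 15757 genes, 15517 by longest transcript, 14356 at 1 CPM and 15837 to 15884 over left-out pools. The depth of 18747249 to 25522347 counts limits statements on genes near 1 CPM.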
